A study of Rattus norvegicus with 7 samples.

Results

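Nuclei with transcripts of the macula densa were chosen from 7 single-nucleus RNA libraries of rat kidney. A retained nucleus was chosen when it held at least 3 unique molecular identifiers (UMIs, counted transcripts) of Nos1 and Pappa2 together and at least 3 of Slc12a1. By this rule 307 of 30746 retained nuclei were taken, and they are called Nos1/Pappa2 nuclei. The tissue was archived kidney of 4-week-old HSRA rats, a line in which some animals are born with a solitary kidney. By their titles, 3 libraries came from animals with 1 kidney and 4 from animals with 2, and no treatment is named. HSRA-S and HSRA-C animals are also counted in the labels, in the same numbers of 3 and 4, but those names are not tied to single libraries. The section taken held both cortex and medulla, in shares that the labels do not state, and neither do they state the sex of the animals.

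The macula densa is a small plaque of epithelial cells where the thick ascending limb touches the glomerulus of its own nephron. It senses salt in the tubule fluid through the sodium-potassium-chloride cotransporter encoded by Slc12a1. It answers with signals that set the tone of the afferent arteriole and the release of renin. Nos1 encodes neuronal nitric oxide synthase, whose product blunts the constriction of the arteriole. Prostaglandin made by the enzyme that Ptgs2 encodes promotes renin release. Pappa2 encodes a protease that cuts the binding proteins Igfbp3 and Igfbp5 and so frees insulin-like growth factor.

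The Nos1/Pappa2 nuclei numbered 13, 47 and 41 in 1-kidney replicates 1 to 3, and 31, 37, 87 and 51 in 2-kidney replicates 1 to 4. They held 933117 UMIs in all, between 30511 and 241010 per library, so that 1-kidney replicate 1 carried the least information. Retained nuclei of all kinds gave 4568143 to 17296625 UMIs per library. Among the 21 pairs of libraries, 1 to 9 retained barcodes were shared, and no Nos1/Pappa2 nucleus was. Nuclei of 1 animal are not replicates, so all tests ran on sums or shares per library.

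The median Nos1/Pappa2 nucleus held 2 UMIs of Nos1 (highest 31), 3 of Pappa2 (highest 28), 29 of Slc12a1 and 2296 UMIs in total. Both Nos1 and Pappa2 were counted in 185 nuclei (60.3%), Nos1 alone in 53 (17.3%) and Pappa2 alone in 69 (22.5%). Levels below are UMIs of a gene per 10000 UMIs of all genes, summed over the nuclei of a library unless pooling over libraries is stated. Nos1 stood at 11.1, 7.80 and 9.56 in 1-kidney replicates 1 to 3, and at 7.12, 9.75, 10.6 and 13.6 in 2-kidney replicates 1 to 4. Pappa2 stood at 10.2, 10.6 and 14.95 in the 1-kidney libraries and at 7.51, 9.42, 18.8 and 11.4 in the 2-kidney libraries. Both genes overlapped between the groups. 2-kidney replicate 3 had the highest Pappa2 level and 28 of the 69 nuclei with Pappa2 alone, while 1-kidney replicate 1 had none of them. Slc12a1 was at 98.3, 69.1 and 118.6 in the 1-kidney libraries and at 100.6, 115.5, 115.0 and 154.0 in the 2-kidney libraries. These values chose the nuclei and are given with no test.

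**Figure D1:**
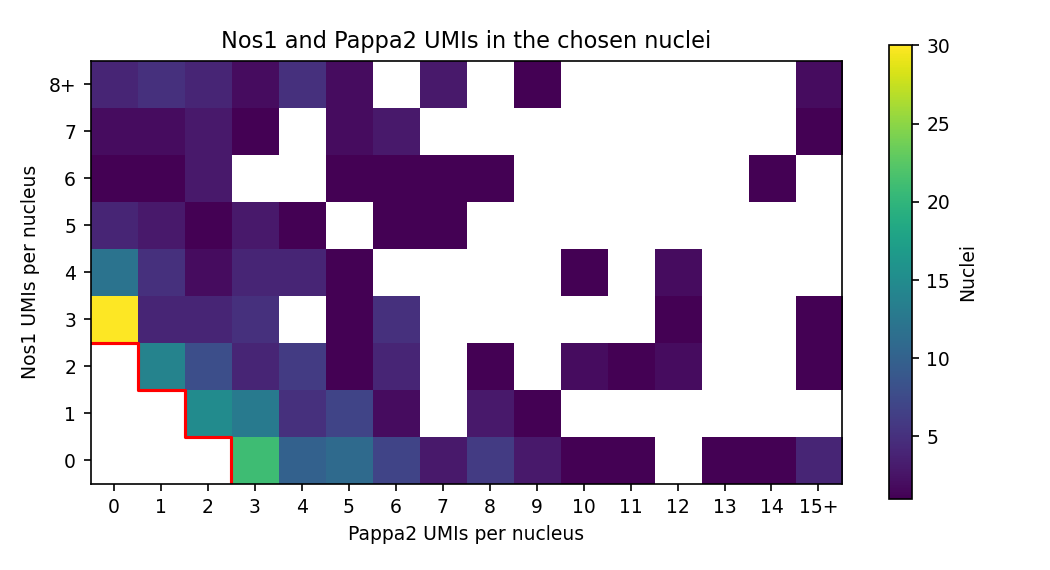
Number of Nos1/Pappa2 nuclei (colour) at each count of Pappa2 UMIs (horizontal axis, 15+ is 15 or more) and Nos1 UMIs (vertical axis, 8+ is 8 or more), all 7 libraries together; the red step is the lower bound of 3 UMIs in total. The fullest cells lie along that bound, at 3 UMIs of either gene alone, and both genes were counted in 185 of the 307 nuclei.

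Nuclei close to the bound were less like those far above it in genes that the rule did not use. Levels in this paragraph were pooled over the nuclei of all 7 libraries, which gave unequal numbers, so they carry no spread between libraries. The part of the mix of libraries in these steps was not tested. Robo2, a guidance receptor known in the macula densa, stood at 20.7 per 10000 UMIs in the 180 nuclei with 5 or more Nos1 and Pappa2 UMIs, at 9.98 in the 47 nuclei with 4 and at 5.39 in the 80 nuclei with 3. Just outside the bound, the 183 nuclei with 2 such UMIs held 2.25. Ptgs2 ran 4.33, 1.76, 0.940 and 0.296 over the same 4 sets. On the side of Slc12a1, 7 nuclei lay just inside with 3 UMIs (Robo2 1.76) and 7 just outside with 2 (Robo2 0.216).

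The 53 nuclei with Nos1 alone differed in these values from the rest, again with all libraries pooled. Their median UMI count was 4504, against 2296 in nuclei with both genes and 1978 in those with Pappa2 alone. Only 47.2% of them reached 50 Slc12a1 UMIs per 10000, a level called Slc12a1-high below, beside 90.8% and 89.9% in the other two sets. Robo2 stood at 3.96 with Nos1 alone, 20.4 with both and 9.97 with Pappa2 alone. Of all 307 nuclei 255 (83.1%) were Slc12a1-high, and the 52 others had a Robo2 level of 2.39 against 19.9 in the Slc12a1-high ones. Slc12a3, the cotransporter of the next segment, was counted at 3 or more UMIs in 28 nuclei and exceeded Slc12a1 in 6. A further 327 barcodes met the gene counts but had over 10000 UMIs (median 37996) and were left out by the rule. Among those, 8.26% were Slc12a1-high.

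Nos1 and Pappa2 UMIs were also counted in nuclei with markers of other cell types, at a far lower level. In nuclei with podocyte markers 5.53% had a Nos1 UMI and 0.939% a Pappa2 UMI at a median of 2604 UMIs per nucleus. In nuclei with endothelial markers the shares were 4.44% and 1.04% at a median of 1668. A total of 3 or more was found in 0 of 958 podocyte nuclei (exact 95% interval up to 0.384%) and in 0 of 1149 endothelial nuclei (up to 0.321%). It was found in 36 of 6087 proximal tubule nuclei (0.591%) and in 9 of 2825 distal convoluted tubule nuclei (0.319%). Intervals cover counting error only. Pooled over libraries, Nos1 stood at 0.182 to 0.385 per 10000 and Pappa2 at 0.0298 to 0.0436 in these 4 populations. Free RNA was not subtracted, and its part in these UMIs was not tested.

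Levels of each of the 2 genes in nuclei chosen by the other alone are given as a description, with no test, since the rule used both genes. Slc12a1-positive nuclei (3 or more UMIs) with at least 2 Nos1 UMIs held Pappa2 at 3.69, 4.37 and 7.45 per 10000 in the 1-kidney libraries and 2.60, 3.41, 8.99 and 5.27 in the 2-kidney libraries. Nuclei of the same libraries with no Nos1 UMI held 0.142 to 0.803. The difference was 4.81 ± 2.15 (SD, n = 7) and above 0 in 7 of 7 libraries. It was 10.4 ± 4.87 among Slc12a1-high nuclei, a bound chosen after seeing the data, 1.49 ± 0.713 with 1 Nos1 UMI as the bound and 2.00 ± 1.77 in nuclei of 3000 to 10000 UMIs.

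In the other direction, nuclei with at least 3 Pappa2 UMIs held Nos1 at 9.20, 7.85 and 11.3 per 10000 in the 1-kidney libraries and at 6.75, 9.30, 7.24 and 10.9 in the 2-kidney libraries. Nuclei with no Pappa2 UMI held 0.331 to 0.549. The difference was 8.48 ± 1.82 (SD, n = 7) and above 0 in 7 of 7 libraries. With 1 Pappa2 UMI as the bound it was 4.21 ± 1.81, and in nuclei of 3000 to 10000 UMIs 5.65 ± 5.03.

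Nos1/Pappa2 nuclei made up 0.578%, 1.08% and 0.971% of retained nuclei in 1-kidney replicates 1 to 3. Their share was 0.806%, 0.845%, 1.48% and 0.881% in 2-kidney replicates 1 to 4. The groups overlapped, with the lowest share in a 1-kidney and the highest in a 2-kidney library. The 1-kidney mean was 0.875% ± 0.263 (SD, n = 3) and the 2-kidney mean 1.00% ± 0.317 (SD, n = 4). The difference of −0.127 percentage points was not larger than the spread between libraries (exact two-sided permutation p = 0.657, the smallest possible being 0.0286). It changed sign without 1-kidney replicate 1 (0.0217) and without 2-kidney replicate 3 (0.0309). Of Slc12a1-positive nuclei they made up 3.08% ± 1.05 in 1-kidney and 3.19% ± 1.78 in 2-kidney libraries (exact permutation p = 0.971).

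Depth was also set side by side, and the groups overlapped. The median Nos1/Pappa2 nucleus held 1133, 2437 and 2054 UMIs in the 1-kidney libraries and 2671, 2723, 2284 and 2639 in the 2-kidney libraries (means 1875 ± 670 and 2579 ± 200, exact permutation p = 0.0571). After thinning every nucleus to 2000 UMIs, which left out 6260 shallower nuclei of the 1-kidney and 9477 of the 2-kidney libraries, 24 and 69 nuclei met the rule. The share was then 0.467% ± 0.230 in 1-kidney and 0.617% ± 0.352 in 2-kidney libraries (exact permutation p = 0.657).

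**Figure D2:**
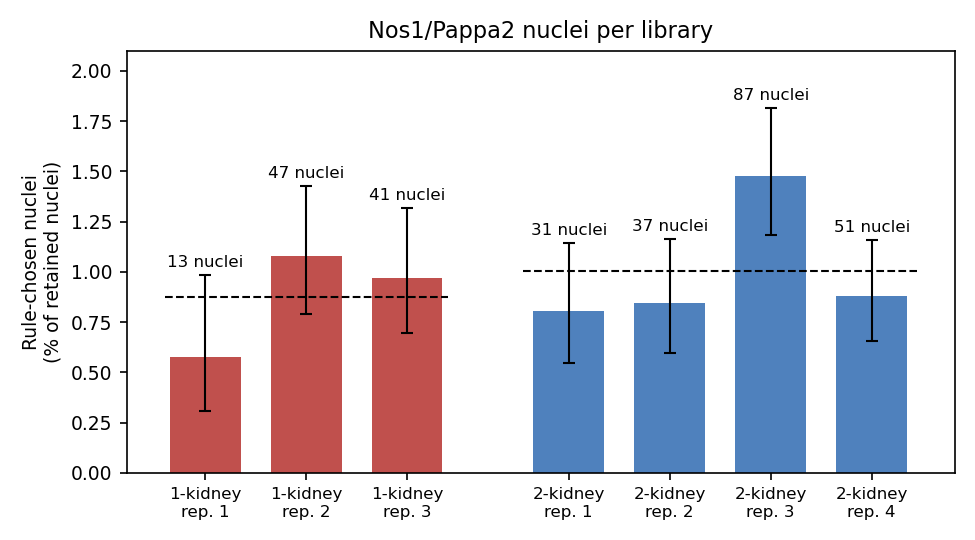
Share of retained nuclei that met the rule in each library (vertical axis, percent); error bars are exact 95% binomial intervals, which cover counting error only, dashed lines are group means and the number above each bar is the count of nuclei. The 1-kidney libraries lie between 0.578% and 1.08% and the 2-kidney libraries between 0.806% and 1.48%.

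Genes outside the rule were compared between the Nos1/Pappa2 nuclei and 8379 Slc12a1-positive nuclei of the same libraries with no Nos1 or Pappa2 UMI, called comparison nuclei. Nos1, Pappa2 and Slc12a1 were left out of the test. Of 7787 genes tested 740 passed (9.5%), 364 higher (4.67%) and 376 lower (4.83%) in the Nos1/Pappa2 nuclei (edgeR quasi-likelihood test with the library as a block, adjusted p under 0.05). The comparison nuclei were a mixed set, since 4704 of them (56.1%) were Slc12a1-high. Their median UMI count was 1897. With Slc12a1-high nuclei on both sides 790 of 5770 genes passed (13.7%), 382 higher (6.62%) and 408 lower (7.07%). Of the 658 genes called in the first comparison and tested in the second, 282 were higher and 237 lower in both, and none was called in the opposite direction. In nuclei of 3000 to 10000 UMIs 162 genes passed, and without the library set P1117B (2-kidney replicates 3 and 4) 334.

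Of the 12 higher genes of smallest p, Ptgs2 had the largest fold. This gene, which encodes the inducible cyclooxygenase, was at 0.328, 3.49 and 1.23 per 10000 in the Nos1/Pappa2 nuclei of 1-kidney replicates 1 to 3. In those of 2-kidney replicates 1 to 4 it was at 1.66, 4.67, 2.66 and 3.95. In the comparison nuclei Ptgs2 ranged from 0.0097 to 0.0942, with a mean of 0.0401 ± 0.0272 (SD, n = 7). No library overlapped, and the fitted difference was 70.5-fold (log2 6.14 ± 0.24 SE, edgeR adjusted p = 5.17e-34). Ptgs2 passed the filter on low counts only through the Nos1/Pappa2 nuclei, so its fold and p are a description and support nothing. A Ptgs2 UMI was counted in 31.9% of the Nos1/Pappa2 nuclei and in 0.728% of the comparison nuclei.

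Pla2g4a encodes the cytosolic phospholipase that frees arachidonic acid, the substrate of cyclooxygenase. Its level was 1.97, 2.28 and 3.11 in the Nos1/Pappa2 nuclei of the 1-kidney and 3.12, 2.05, 5.23 and 3.76 in those of the 2-kidney libraries. The comparison nuclei held 0.107 to 0.294, below every library of the Nos1/Pappa2 nuclei (log2 fold 4.06 ± 0.17, edgeR adjusted p = 1.39e-31). Ptges, encoding an inducible prostaglandin E synthase, gave 4 UMIs in all Nos1/Pappa2 nuclei and did not pass the filter on low counts. Neither did Ptgs1, the constitutive cyclooxygenase gene, with 4 UMIs.

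Robo2, the guidance receptor gene described above, was also among the 12. It was at 9.18, 5.90 and 16.1 in the Nos1/Pappa2 nuclei of the 1-kidney and 8.59, 12.3, 17.7 and 23.1 in those of the 2-kidney libraries. The comparison nuclei held a median of 1.48 over the 7 libraries (0.418 to 2.44) and the Slc12a1-high ones a median of 0.782 (0.462 to 0.959). The log2 fold was 3.16 ± 0.15 against all comparison nuclei and 4.73 among Slc12a1-high nuclei. A Robo2 UMI was counted in 77.9% of the Nos1/Pappa2 nuclei and in 12.4% of the comparison nuclei.

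Ntrk3, the receptor of neurotrophin-3, ranged from 1.31 to 4.49 with a median of 1.95 in the Nos1/Pappa2 nuclei, against 0.046 to 0.107 in the comparison nuclei (log2 fold 5.33 ± 0.23). Ksr2, a scaffold of the Raf-MEK-ERK kinases, ranged from 3.28 to 9.71 (median 3.93) against 0.230 to 0.323 (4.37 ± 0.16). For the cation channel gene Trpm3 the range was 2.34 to 7.71 (median 4.32) against 0.226 to 0.360 (3.89 ± 0.17). In none of these 3 genes did a library of the Nos1/Pappa2 nuclei overlap one of the comparison nuclei, and the edgeR adjusted p was at most 1.31e-31. Ntrk3, like Ptgs2, passed the filter on low counts only through the Nos1/Pappa2 nuclei, so its values are a description.

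Further genes of smallest p were Ca8, a carbonic anhydrase-related gene, at a log2 fold of 3.46, Dmd, which encodes dystrophin, at 2.81, Anks1b at 2.70, Ptpro at 2.67, Samd5 at 2.52 and Itprid2 at 2.23. Each of the 12 genes of smallest p was higher in the Nos1/Pappa2 nuclei of 7 of 7 libraries, also with Slc12a1-high nuclei on both sides. The genes were chosen for small p in these same libraries, so this agreement describes them and supports nothing. In nuclei of 3000 to 10000 UMIs Ptgs2, Pla2g4a, Ntrk3, Ksr2 and Ca8 did not pass the filter on low counts, so they were not tested there. Robo2 was at a log2 fold of 2.20 in that depth range and Trpm3 at 3.74, both past the threshold.

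**Figure D3:**
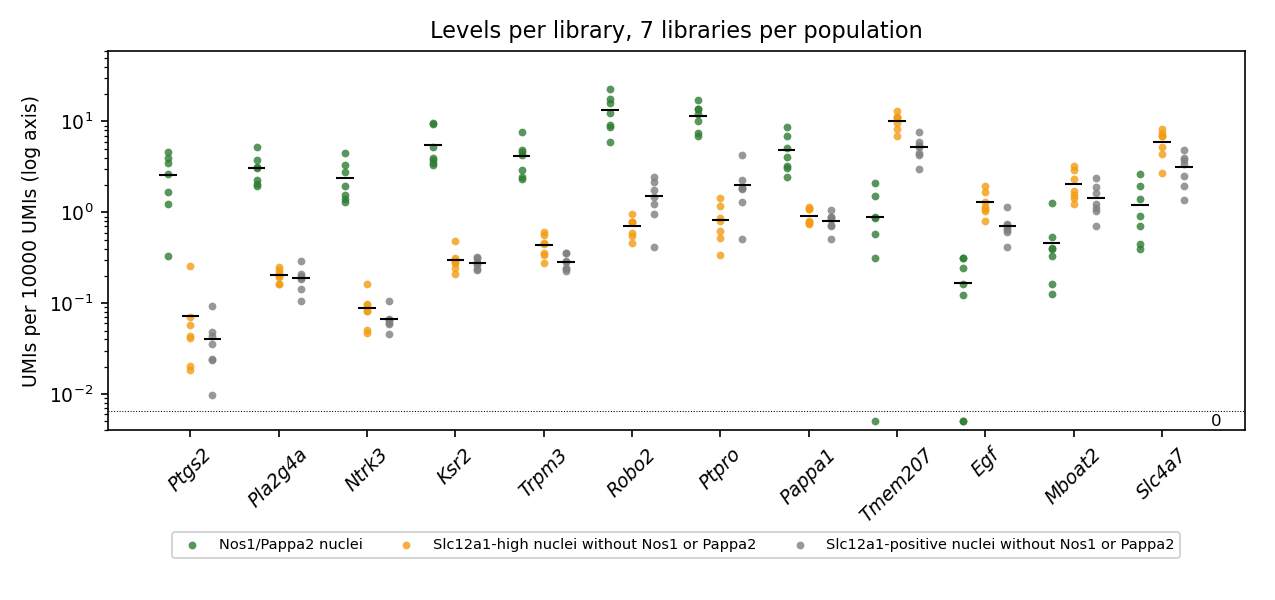
Level of 12 genes (UMIs per 10000 UMIs, log axis) in each of the 7 libraries, for Nos1/Pappa2 nuclei (green), Slc12a1-high comparison nuclei (orange) and all comparison nuclei (grey); bars are means, and points under the dotted line are libraries with no UMI. Ptgs2, Pla2g4a, Ntrk3, Ksr2, Trpm3, Robo2, Ptpro and Pappa1 are higher and Tmem207, Egf, Mboat2 and Slc4a7 lower in the Nos1/Pappa2 nuclei.

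A list of 26 other macula densa genes, of which 25 are in the files, was followed in the same comparison. The low-count filter left 11, of which 8 were higher, 1 was lower and 2 did not pass the test, with a median log2 fold of 2.13 against −0.01 over all 7787 genes. Some of these genes pass the filter only through the Nos1/Pappa2 nuclei, so the count over the 11 describes them and supports nothing. Besides Ptgs2 and Robo2, the higher ones were Bmp3, a growth factor gene (log2 fold 3.34 ± 0.37), the vasohibin gene Vash2 (2.35 ± 0.24), the calcitonin receptor gene Calcr (2.31 ± 0.31), Slc9a2, which encodes the sodium-proton exchanger NHE2 (2.13 ± 0.25), the transcription factor Irx1 (2.08 ± 0.22) and Pamr1 (1.01 ± 0.22).

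Levels of these genes were low. Slc9a2 was at 0.328, 0.634 and 0.409 in the Nos1/Pappa2 nuclei of the 1-kidney and 0.488, 0.983, 1.12 and 1.53 in those of the 2-kidney libraries, all above the 0.148 to 0.240 of the comparison nuclei. Calcr was counted in 5 of the 7 libraries, at 0.163 in 1-kidney replicate 3 and 0.293 to 1.58 in the 2-kidney libraries. It was at 0 in 1-kidney replicates 1 and 2. Pamr1 stood at −0.04 in nuclei of 3000 to 10000 UMIs and was not called there (adjusted p = 0.989).

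Fabp3, a fatty acid binding protein gene, was the one lower member (log2 fold −1.65 ± 0.50, edgeR adjusted p = 0.0211), with 7 UMIs in the Nos1/Pappa2 nuclei. Its call was lost without 1-kidney replicate 3 (adjusted p = 0.0584), without 2-kidney replicate 3 (0.057) and without 2-kidney replicate 4 (0.103). Sgms2 stood at 0.29 and Cxcl12 at 0.50, neither past the threshold. Oxtr, the oxytocin receptor gene, gave 28 UMIs in the 307 Nos1/Pappa2 nuclei and 3 in the 8379 comparison nuclei, too few to be tested. Begain, Mcub, Tmem158, Ccn3, Cxcl14 and Wnt10a had no UMI in the Nos1/Pappa2 nuclei, and Avpr1a had 1.

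Several genes of the thick ascending limb were lower in the Nos1/Pappa2 nuclei and others higher. Tmem207, a transmembrane protein gene, was the lower gene of smallest p. It was at 0, 0.317 and 0.572 in the Nos1/Pappa2 nuclei of the 1-kidney libraries and at 0.878, 2.13, 0.871 and 1.53 in those of the 2-kidney libraries. The comparison nuclei held 3.03 to 7.71 (log2 fold −2.33 ± 0.18, edgeR adjusted p = 1.25e-17) and the Slc12a1-high ones 6.96 to 13.1. Egf, which encodes the epidermal growth factor secreted by this segment, had 18 UMIs and was at 0 in 1-kidney replicate 1 and 2-kidney replicate 1. Its highest library held 0.318, below the 0.412 to 1.15 of the comparison nuclei (−1.77 ± 0.31).

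Over 20 tested transport and identity genes of the thick ascending limb 6 were higher and 5 lower, with a median log2 fold of 0.02, beside 4.67% higher and 4.83% lower over all genes. Among the higher were the transcription factor Irx2 (1.48 ± 0.29), the kinase Wnk4 (1.29 ± 0.13), the calcium-sensing receptor gene Casr (1.03 ± 0.16), the prostaglandin receptor gene Ptger3 (1.03 ± 0.14) and Fxyd2 (0.68 ± 0.15). Among the lower besides Egf were Cldn16, which encodes the claudin of calcium and magnesium uptake (−1.28 ± 0.36), the exchanger gene Slc9a3 (−0.66 ± 0.15) and the kinase Stk39 (−0.39 ± 0.12). Stk39 lost its call without 2-kidney replicate 2 (adjusted p = 0.0907) or 2-kidney replicate 3 (0.161), and Cldn16, with 16 UMIs, without 2-kidney replicate 3 (0.0799).

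The choice of comparison nuclei mattered in this list. Among Slc12a1-high nuclei 4 of the 20 genes were higher, Wnk4, Irx2 and Ptger3 among them, and 8 lower, beside 6.62% and 7.07% over all genes. Casr (0.45, adjusted p = 0.0747) and Fxyd2 (0.26, 0.348) were not called there, and both were below 0 against nuclei with a Cldn16 UMI. Umod, which encodes uromodulin, stood at −0.16 against all comparison nuclei (adjusted p = 0.584), was lower among Slc12a1-high nuclei (−0.83, adjusted p = 5.6e-06) and stood at 0.25 against nuclei with Cldn10 and no Cldn16 (adjusted p = 0.254). At 3000 to 10000 UMIs the calls of Egf, Slc9a3 and Stk39 were lost (adjusted p = 0.0919 to 0.81).

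The other lower genes of smallest p were led by the bicarbonate cotransporter gene Slc4a7 (−1.49 ± 0.16), the lysophospholipid acyltransferase gene Mboat2 (−1.60 ± 0.21), Magi2 (−1.67 ± 0.23), Ninl (−1.43 ± 0.18), the growth factor gene Pdgfa (−1.24 ± 0.14), Rbms3 (−1.19 ± 0.12), the mitochondrial ribosomal gene Mrps6 (−1.11 ± 0.12), Chst9 (−1.05 ± 0.13), the potassium channel gene Kcnq1 (−1.01 ± 0.13) and Peli2 (−0.96 ± 0.13). The angiogenic factor gene Vegfa followed at −0.84 ± 0.12. All 12 lower genes of smallest p were below the comparison nuclei in 7 of 7 libraries, a description only, since these libraries chose them. Magi2 was not called among Slc12a1-high nuclei (−0.28, adjusted p = 0.628).

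Of 10 tested genes of the insulin-like growth factor axis 2 were higher and 3 lower, with a median log2 fold of −0.26, beside 4.67% higher and 4.83% lower over all genes. Pappa1, the symbol in the files for the paralog of Pappa2, was at 3.28, 3.04 and 5.15 in the Nos1/Pappa2 nuclei of the 1-kidney and 2.44, 4.02, 6.97 and 8.79 in those of the 2-kidney libraries. The comparison nuclei held 0.504 to 1.06, without overlap (log2 fold 2.67 ± 0.15). Igfbp5, which encodes a binding protein that the Pappa2 protease cuts, was at 0.71 ± 0.14 (2.83 ± 1.53 against 1.79 ± 0.448 per 10000, SD, n = 7). It was not called without 2-kidney replicate 3 (0.46, edgeR adjusted p = 0.0659). The growth factor gene Igf1 stood at −1.90 ± 0.42 with 10 UMIs, the receptor substrate gene Irs1 at −1.07 ± 0.26 and the receptor gene Igf1r at −0.45 ± 0.10 (10.9 ± 2.01 against 15.2 ± 3.84). Igfbp3, the other known substrate, had 21 UMIs and was not tested. At 3000 to 10000 UMIs the calls of Igfbp5, Irs1 and Igf1r were lost (edgeR adjusted p = 0.164 to 0.352).

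Among 20 tested genes of mitochondrial energy metabolism none was higher and 4 were lower, with a median log2 fold of −0.28, beside 4.83% lower over all genes. The coactivator gene Ppargc1a was at −0.64 ± 0.11 (6.09 ± 1.11 per 10000 in the Nos1/Pappa2 and 9.73 ± 2.29 in the comparison nuclei, SD, n = 7). Idh2 was at −0.39 ± 0.12 and the nuclear receptor gene Esrrg at −0.35 ± 0.11. Among Slc12a1-high nuclei 6 were lower, beside 7.07% over all genes, and the median was −0.53. The calls of Ppargc1a, Idh2 and Esrrg were lost at 3000 to 10000 UMIs (adjusted p = 0.484 to 0.919). Leaving out 1 library removed the call of Esrrg without 1-kidney replicate 2 (adjusted p = 0.0669) or 2-kidney replicate 2 (0.0607) and of Idh2 without 2-kidney replicate 3 (0.158).

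Of 11 tested genes of the FGF and ERK feedback list 3 were higher and 1 lower, beside 9.5% called in either direction over all genes. The transcription factor Etv4 was at 3.78 ± 0.47 on the log2 scale with 30 UMIs, its relative Etv1 at 1.98 ± 0.18 and the receptor gene Erbb4 at 0.86 ± 0.12. In the comparison nuclei Etv4 held 0.0258 ± 0.0169 per 10000 (SD, n = 7). It passed the low-count filter only through the Nos1/Pappa2 nuclei, so the count over this list is a description and supports nothing. Etv1 ranged from 1.07 to 2.45 per 10000 in the Nos1/Pappa2 nuclei against 0.206 to 0.774 in the comparison nuclei. The receptor gene Egfr was lower at −0.71 ± 0.17. Of 14 tested genes of axon guidance and synaptic adhesion 2 were higher and 1 lower, beside 4.67% higher and 4.83% lower over all genes. This list had a median log2 fold of −0.32, against −0.01 over all genes. Slit2, a secreted ligand of Robo receptors, was higher at 1.07 ± 0.11, with a level of 14.3 ± 5.99 against 6.78 ± 2.52 (SD, n = 7). Sema6d was higher at 0.70 ± 0.19, though not without 2-kidney replicate 4 (0.49, adjusted p = 0.19), and the ephrin receptor gene Ephb2 lower at −1.38 ± 0.20. The calls of Egfr, Sema6d and Ephb2 were lost at 3000 to 10000 UMIs (edgeR adjusted p = 0.06 to 0.273).

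In the tubuloglomerular list 7 of 18 genes in the files were tested and 1 passed, a share near the 9.5% of all genes. It was the phosphodiesterase gene Pde1a at −1.34 ± 0.22. Agtr1b, an angiotensin receptor gene, gave 39 UMIs in the 307 Nos1/Pappa2 nuclei and 34 in the 8379 comparison nuclei and was below the filter. Of 11 glucocorticoid response genes 2 passed, with 9.5% over all genes. Nr3c2, the mineralocorticoid receptor gene, was higher at 0.34 ± 0.11 and Zbtb16 lower at −0.53 ± 0.13. The Nr3c2 call was lost without any 1 of 1-kidney replicates 2 and 3 and 2-kidney replicates 2, 3 and 4 (adjusted p = 0.0587 to 0.159). In nuclei of 3000 to 10000 UMIs the calls of Pde1a, Nr3c2 and Zbtb16 were lost (edgeR adjusted p = 0.137 to 0.919). None of 15 mTOR pathway genes and none of 6 immediate early genes passed.

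**Figure D4:**
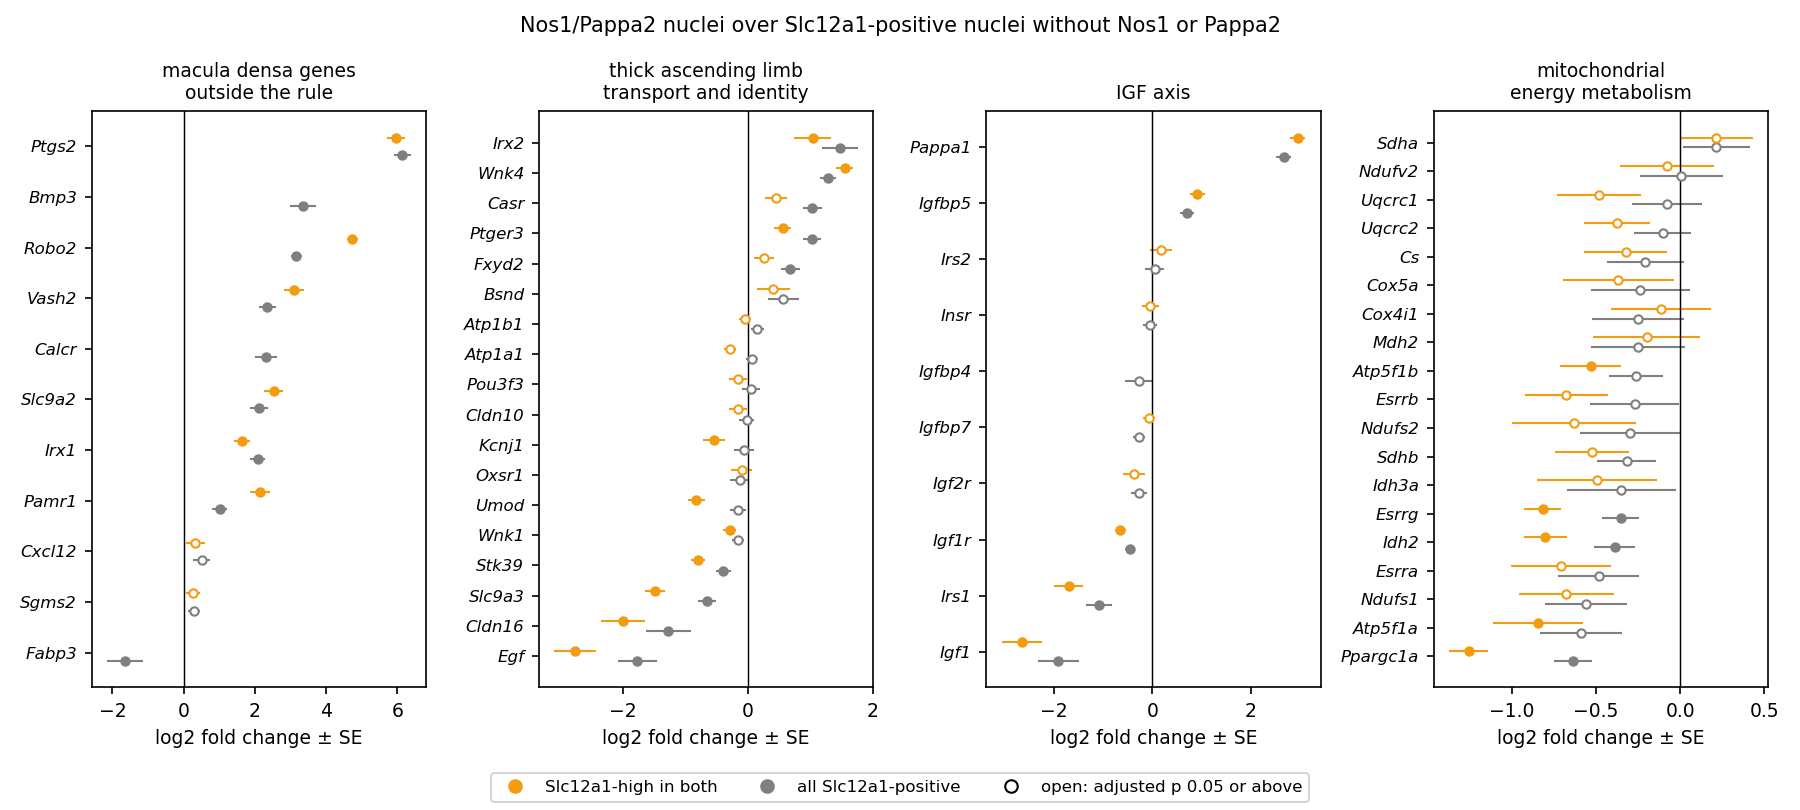
Log2 fold change (± SE, edgeR) of tested genes of 4 lists in Nos1/Pappa2 nuclei over nuclei without Nos1 or Pappa2, against all Slc12a1-positive nuclei (grey) and with Slc12a1-high nuclei on both sides (orange); filled points passed an adjusted p of 0.05. The macula densa genes lie mostly above 0, the thick ascending limb genes on both sides of 0 and 17 of the 19 mitochondrial genes drawn below 0 in the grey comparison.

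Markers of other cell types were followed in the same nuclei, with levels pooled over libraries. The 6 podocyte markers summed to 13.4 per 10000 in the Nos1/Pappa2 nuclei and 4.53 in the comparison nuclei, and 12.4 of the 13.4 was Ptpro, a receptor phosphatase gene known from podocytes. The slit diaphragm gene Nphs1 was at 0.354, and Nphs1, Podxl and Wt1 were called lower in the Nos1/Pappa2 nuclei. Among Slc12a1-high nuclei 2 of the 6 were tested and none was lower, and the pooled level of Nphs1 in the Slc12a1-high comparison nuclei was 0.241. The 4 renin cell markers summed to 2.67 against 0.113, of which Ntrk3 made up 2.60. Akr1b7 and Rgs5 had no UMI. Endothelial markers summed to 3.08 against 4.22 and immune markers to 0.579 against 0.629. The 8 proximal tubule markers summed to 202 per 10000 against 222, all of them counted, and Slc7a13 alone passed, as lower.

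Nos1/Pappa2 nuclei with a Nos1 UMI were set against those with Pappa2 alone in the 6 libraries that held both kinds. Of 1878 genes tested 49 passed (2.61%), 18 higher (0.958%) and 31 lower (1.65%) with Nos1 (edgeR with the library as a block). The split used a gene of the rule, so that the arms differ by construction: nuclei with Pappa2 alone had to hold 3 of its UMIs, and the other arm takes in the 53 nuclei with Nos1 alone, of higher depth and fewer Slc12a1-high nuclei, as given above. The part of these differences in the calls was not tested beyond the Slc12a1-high and depth-bounded values below. Umod was at 1.69 ± 0.694 per 10000 with Nos1 and 9.42 ± 6.05 with Pappa2 alone (SD, n = 6; log2 fold −2.52 ± 0.24, edgeR adjusted p = 2.64e-23). Enox1, an oxidase gene that was higher in the Nos1/Pappa2 nuclei as a whole (2.39), was at 11.9 ± 6.26 with Nos1 and 35.4 ± 22.5 without (−1.51 ± 0.16). Fut9, a fucosyltransferase gene, stood at −2.18 ± 0.32, the transcription factor Arnt2 at −1.25 ± 0.21 and the scaffold gene Shank2 at −1.03 ± 0.18. Also lower were Sec14l1 (−1.35 ± 0.25), Slc16a7 (−1.11 ± 0.23), Sat1 (−1.17 ± 0.24), Gcnt2 (−0.84 ± 0.19) and Cgnl1 (−0.75 ± 0.15). Without 2-kidney replicate 4 the calls of Sec14l1 (adjusted p = 0.0755) and Gcnt2 (0.0509) were lost. From the lists, Ptger3 (−1.12 ± 0.26), Fxyd2 (−1.35 ± 0.27), Igfbp5 (−1.03 ± 0.26) and Stk39 (−0.85 ± 0.21) were lower with Nos1. Stk39 and Fxyd2 lost the call without 2-kidney replicate 3 (adjusted p = 0.0684 and 0.079), and Igfbp5 without 2-kidney replicate 2 (0.0518) or 2-kidney replicate 3 (0.153). Ptger3 lost it among Slc12a1-high nuclei (−0.92, edgeR adjusted p = 0.105).

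Higher with Nos1 were Luzp2 (2.62 ± 0.47), Trpm3 (1.57 ± 0.30, at 4.67 ± 2.21 with Nos1 and 1.66 ± 1.29 without) and Ptpro (0.86 ± 0.20, at 13.5 ± 3.95 and 7.29 ± 3.21). The sodium-calcium exchanger gene Slc8a1 was at 1.59 ± 0.23 and Slc12a3 at 1.05 ± 0.25. Both genes mark later segments. Slc12a3 lost its call without 1-kidney replicate 3 (adjusted p = 0.127), and Slc8a1 stood at 0.52 among Slc12a1-high nuclei (adjusted p = 0.66). Also among the 12 higher genes of smallest p were Dmd (0.83 ± 0.22), the proximal tubule marker Lrp2 (0.64 ± 0.17) and Rerg (1.33 ± 0.35). With them came Dhrs7l1 (1.52 ± 0.41), Slc7a7 (1.04 ± 0.28), Slc4a10 (1.63 ± 0.44) and Slco1a6 (0.78 ± 0.21). Each of these genes lost its call without 1-kidney replicate 3 or 2-kidney replicate 3 (adjusted p = 0.0741 to 0.417). Among Slc12a1-high nuclei the calls of Lrp2, Slc7a7 and Slco1a6 were lost (adjusted p = 0.153 to 0.693). Robo2 was at 0.63 ± 0.19 (edgeR adjusted p = 0.0317), a call lost without 1-kidney replicate 3 and without each of 2-kidney replicates 2, 3 and 4 (adjusted p = 0.071 to 0.438). Leaving out 1-kidney replicate 3 or 2-kidney replicate 3 left 27 calls each, and 2-kidney replicate 4 left 32. Among Slc12a1-high nuclei 26 of 976 genes passed. In nuclei of 3000 to 10000 UMIs 2 did, Umod and Enox1, both lower with Nos1.

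Within the Nos1/Pappa2 nuclei the 1-kidney libraries were set against the 2-kidney libraries. Of 3014 genes tested, edgeR called 0 (0.0%), with 0.395 as the lowest adjusted p. Before adjustment 300 genes (9.95%) had p under 0.05, and DESeq2 called 0 as well, with 172 genes under 0.05 before adjustment. For 309 genes (10.3%) the groups did not overlap. The values that follow are therefore descriptions of genes with the smallest p. On simulated counts the same fit recovered 40% of genes changed 2-fold and 96% of those changed 4-fold. These counts had the same dispersion (spread between libraries beyond counting error) for every gene. Spread particular to a gene was not simulated, so these shares do not bound the size of group changes that were missed.

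Fam133b had 6.23, 5.01 and 6.29 per 10000 in the 1-kidney libraries and 1.85, 3.11, 1.95 and 2.80 in the 2-kidney libraries, without overlap (log2 fold 1.27 ± 0.27). Casp8ap2, which encodes a partner of caspase-8, had 2.62, 2.35 and 2.61 in the 1-kidney libraries, against 0.976, 1.15, 0.954 and 1.15 in the 2-kidney libraries (1.26 ± 0.28). The 2 groups were also apart for this gene. Igfbp5 was at 1.64, 1.21 and 1.63 in the 1-kidney libraries and at 4.39, 2.87, 5.31 and 2.74 in the 2-kidney libraries (−1.39 ± 0.34). All 3 of the 1-kidney values lay below all 4 of the 2-kidney values, and the edgeR adjusted p was 0.395 for each of these genes.

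Next by p came Fat3 (log2 fold 1.46 ± 0.36), Tdrp (1.76 ± 0.46), the collagen gene Col27a1 (1.59 ± 0.42), Rngtt (−1.27 ± 0.34), Zfp827 (−1.27 ± 0.35), Gsta5 (1.19 ± 0.33) and Ltbp1, which encodes a binding protein of latent TGF-beta (−1.90 ± 0.52). Tdrp passed without 2-kidney replicate 2 (2.55, edgeR adjusted p = 0.00902), the library with its highest 2-kidney value, 1.80 against 0.390 to 0.446 in the other 3. Gsta5 belongs to a family of similar copies, between which the authors' counting could split reads.

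Genes of the macula densa did not pass between the groups. Ptgs2 averaged 1.68 ± 1.63 per 10000 over 1-kidney and 3.23 ± 1.34 over 2-kidney libraries, with overlapping values (log2 fold −0.64 ± 0.45, edgeR adjusted p = 0.635). Robo2 stood at −0.55 ± 0.37 (adjusted p = 0.63) and Slc9a2 at −1.03 ± 0.46 (0.496). Of the list 7 genes were tested, 0 passed and 1 lay above 0 (median −0.36 against −0.02 over all genes). Sgk1, a kinase gene induced by corticosteroids, was at 1.64, 2.66 and 1.72 in the 1-kidney libraries and 0.878, 1.15, 1.12 and 0.318 in the 2-kidney libraries (1.29 ± 0.39, adjusted p = 0.395). Of 8 tested genes of its list 7 lay above 0 and none passed (median 0.45 against −0.02 over all genes).

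Genes named in an earlier analysis of the same 7 libraries, Col27a1 among them, were not called here, and that analysis is no independent evidence. Sema6d stood at −1.47 ± 0.41, Ptger3 at −1.33 ± 0.46 and Slc5a12, a transporter gene of the proximal tubule, at 0.96 ± 0.32 (adjusted p = 0.395 to 0.432). The 8 proximal tubule markers summed to 237 to 349 per 10000 in the Nos1/Pappa2 nuclei of the 1-kidney and 61.5 to 268 in those of the 2-kidney libraries. In the comparison nuclei the range was 277 to 338 over 1-kidney and 125 to 257 over 2-kidney libraries. The part of this RNA in the group differences was not tested.

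**Figure D5:**
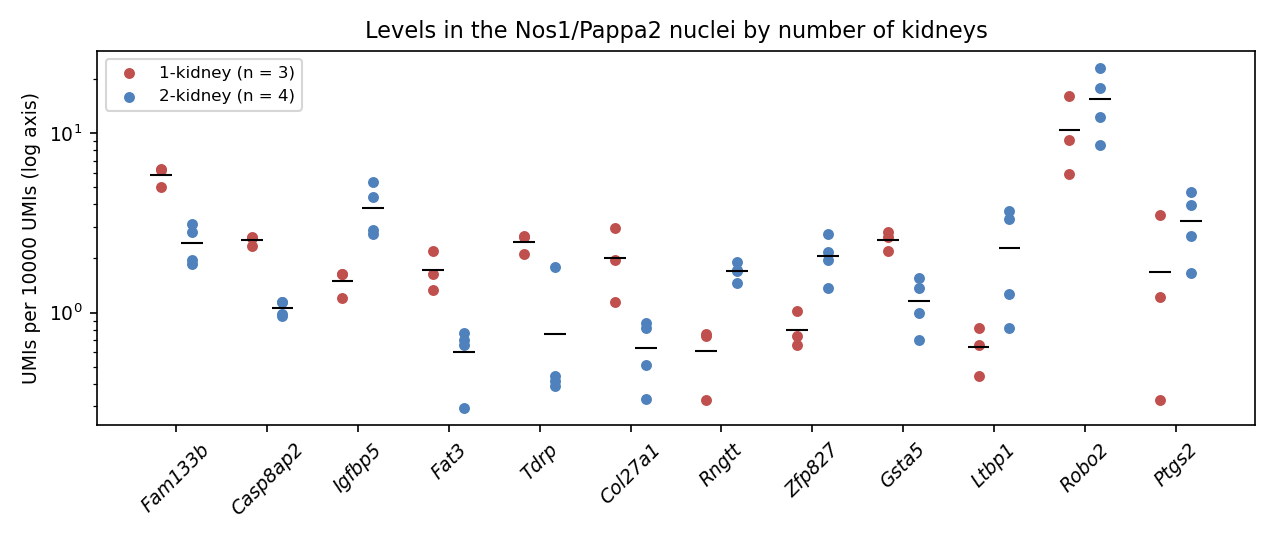
Level of 12 genes (UMIs per 10000 UMIs, log axis) in the Nos1/Pappa2 nuclei of each 1-kidney (red) and 2-kidney (blue) library, with bars at the group means. The groups are apart for the first 10 genes, chosen for the smallest p, and overlap for Robo2 and Ptgs2. None passed an adjusted p of 0.05 in the main fit.

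Whether the group difference itself differed between the Nos1/Pappa2 and the comparison nuclei was tested with an interaction term. Of 8995 genes, edgeR called 0 (0.0%), with 0.137 as the lowest adjusted p and 329 genes under 0.05 before adjustment. DESeq2 also called 0, with 162 genes under 0.05 before adjustment. The immediate early gene Egr1 had the smallest p, at 0.841 ± 0.573 per 10000 in the 1-kidney and 0.155 ± 0.135 in the 2-kidney Nos1/Pappa2 nuclei, and 0.595 and 0.552 in the comparison nuclei (difference of log2 folds 2.40 ± 0.55). It rests on 43 UMIs and passed without 1-kidney replicate 1 (adjusted p = 0.0132) or 2-kidney replicate 3 (0.0441). Tmem207 averaged 0.296 ± 0.287 in the 1-kidney and 1.35 ± 0.604 in the 2-kidney Nos1/Pappa2 nuclei, and 5.49 and 4.95 in the comparison nuclei (−1.73 ± 0.44, adjusted p = 0.22). It passed without 2-kidney replicate 3 (−2.06, adjusted p = 0.0441).

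Ptgs2 had a difference of −1.70 ± 0.48 (adjusted p = 0.56), from 271 UMIs in the Nos1/Pappa2 and 90 in the comparison nuclei. Igfbp5 stood at −1.04 ± 0.30 (adjusted p = 0.57), with 1.48 and 2.01 per 10000 in the comparison nuclei of the 1-kidney and 2-kidney libraries. Others among the 10 genes of smallest p were Sorcs3 (−3.57 ± 0.89), the apoptosis gene Bcl2l11 (1.84 ± 0.47), the cell cycle genes Cenpf (1.98 ± 0.55) and Mki67 (2.24 ± 0.66), Slc4a1 (−1.17 ± 0.34) and Tox3 (1.32 ± 0.38). Sorcs3 passed without 2-kidney replicate 1 (adjusted p = 0.0464) and Slc4a1 without 2-kidney replicate 4 (0.0413).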

How the data were processed

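Nuclei of archived rat kidney were profiled with 10x Genomics 3' chemistry, 7 libraries with a target of 5000 nuclei each. The deposited values are raw UMI counts per gene and barcode for called barcodes, made by the authors with Cell Ranger 7.0 per the file headers; no header or label names the genome build. Barcodes with at least 200 genes, at most 10000 UMIs and at most 5% mitochondrial UMIs were retained (30746 of 37048). Free RNA was not removed, and 0 to 4 barcodes per library were marked by the automatic Scrublet bound, which therefore did not work; removing the highest scores (0.8% per 1000 barcodes, 1502 in all, 18 of them Nos1/Pappa2 nuclei) was an alternative.

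Counts were summed per library and tested in edgeR 4.0.16 (R 4.3.3; TMM, filterByExpr, quasi-likelihood, Benjamini-Hochberg adjusted p under 0.05), with the library as a block where both kinds of nuclei came from the same libraries; the design is paired in this sense alone. All adjusted p-values are from edgeR unless DESeq2 (1.42.0) is named. Nos1, Pappa2 and Slc12a1 were left out of the tested genes of every fit but stayed in the library sizes that edgeR used. Single values were compared with exact permutation tests. Fits were tested on simulated data with the same dispersion for every gene. Named genes are the 12 of smallest p in each direction between kinds of nuclei, the 10 of smallest p between kidney groups and for the difference of effects, list members, cell type markers and genes of an earlier analysis; identifiers without a symbol are counted and not named. The rule, the lists and the tests were chosen with earlier results of these data known. Of 191 list genes 185 are in the files; the others were not analysed here. Nothing states that libraries of a group came from separate animals, so p-values measure the spread between libraries. Results of some list genes are not reported here, and those genes are counted in the lists but not drawn.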

Additional observations from a re-analysis of the deposited data

Results flagged for a closer look

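Each value here comes from a 2-kidney library that stood apart from the other 3 by Dixon's criterion at its 95% critical value; of 109 groups of 4 tested 10 were flagged, and chance flags about 1 group in 20. Causes were not tested.

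2-kidney replicate 3 had the highest share of Nos1/Pappa2 nuclei, 1.48% of retained nuclei beside 0.806% to 0.881% in the other 2-kidney libraries. Of Slc12a1-positive nuclei its share was 5.84%, beside 2.01% to 2.57%.

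In 2-kidney replicate 4 the Nos1/Pappa2 nuclei held Mboat2 at 1.27 per 10000 UMIs, beside 0.390 to 0.539, and Stk39 at 9.62, beside 3.85 to 4.69. In 2-kidney replicate 2 Tdrp was at 1.80, beside 0.390 to 0.446.

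In 2-kidney replicate 1 Magi2 was at 1.85, beside 0.164 to 0.318, and Pamr1 at 1.37, beside 0.828 to 0.901. Casr was at 1.07 there, beside 4.10 to 4.56, and Slc12a3 at 10.3, beside 3.69 to 4.59. Cgnl1, a junction protein gene that was lower in nuclei with Nos1 than in those with Pappa2 alone, was at 17.5, beside 24.6 to 25.9.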

How the results depend on the processing

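The difference in the share of Nos1/Pappa2 nuclei between 1-kidney and 2-kidney libraries was above 0 without library set P1117B (0.0496 percentage points), and leaving out 1 library gave −0.228 to 0.0309. Between the kidney groups 8 of 14331 genes (0.0558%) were called with no filter on low counts, Tdrp and Ltbp1 among them. Leaving out 1 library gave 0 to 1. The log2 fold of Umod between the groups was −0.64 in the main fit, 0.27 with the set as a term and 0.26 without P1117B. That of Mtmr7 was −0.63 in the main fit and 0.40 with the set as a term. For Il17rd it was −0.19 in the main fit and ranged from −1.04 to 0.22 over libraries left out. Replicate numbers only name the libraries: No paired analysis was possible because the kidney groups hold different animals.

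Against comparison nuclei, 740 calls became 334 without P1117B, 162 at 3000 to 10000 UMIs, 417 against Cldn16 nuclei and 304 with no replicate block; leaving out 1 library gave 519 to 846. Higher genes made up 49.2% of the calls, 70.1% with no replicate block and 28.6% with no filter, where the median log2 fold of all genes was −0.37. Signs turned for Umod (0.38 at 3000 to 10000 UMIs, 0.25 against Cldn10 nuclei), Pamr1 (−0.039 at 3000 to 10000 UMIs), Casr (−0.35) and Fxyd2 (−0.15), the last pair against Cldn16 nuclei. Without P1117B the calls of Cldn16, Slc9a3, Stk39, Fabp3, Igf1, Igfbp5, Irs1, Egfr, Sema6d, Nr3c2, Zbtb16 and Idh2 were lost (adjusted p = 0.0627 to 0.397). For nuclei with over without Nos1, 49 calls became 29 with DESeq2, 2 at 3000 to 10000 UMIs and 26 among Slc12a1-high nuclei; leaving out 1 library gave 27 to 52. The difference of group effects had 6 calls without P1117B and 2 with at least 5 Nos1 and Pappa2 UMIs, and 0 to 2 with 1 library left out. The cause was not tested in any of these. Slc12a1-high settings were chosen after seeing the data.

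The 13 nuclei of 1-kidney replicate 1 and the 307 nuclei in all limit precision. On simulated counts with the same dispersion for every gene, the group comparison recovered 40% of 2-fold changes and the difference of group effects 17%.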
